A study of Mus musculus with 24 samples.

Results

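Interferon-stimulated genes are the genes that a cell switches on when it meets an interferon or viral nucleic acid, and 42 of them were followed here through the early differentiation of mouse embryonic stem cells that lack the histone methyltransferases Mll1, Mll2 or both. The 42 were given as a list of symbols with no threshold on measured values, but with earlier results of these data known, and all 42 had a row among the 19953 genes of the normalized count table. Gene expression was measured by polyA-selected, strand-specific RNA sequencing of 24 libraries, 3 for each of 8 groups. The groups crossed 2 days with 4 genotypes: WT, lines lacking Mll1 (Mll1-KO) or Mll2 (Mll2-KO), and a double-KO.

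At day 0 the cells were kept on gelatin in 15% fetal bovine serum with leukemia inhibitory factor, and at day 4 they had spent 4 days on gelatin in 10% serum and 1 µM retinoic acid, a protocol that gives several lineages at once. The Mll1-KO lines were edited with CRISPR in a line whose Mll2 gene can be removed by an inducible Cre recombinase. The Mll2-KO and double-KO cells had received 800 nM 4-hydroxytamoxifen for 48 h, and the WT and Mll1-KO cells are not described as having received it. An effect of Mll2 loss and an effect of that treatment therefore cannot be told apart where Mll2-KO or double-KO is compared with WT or with Mll1-KO, nor in the test of non-additivity. The sources used here do not say how many clones stand behind a genotype or whether the 3 libraries of a group came from separate cultures, so the p-values measure the spread between these libraries only.

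Type I and type III interferons bind receptors that activate the kinases Jak1 and Tyk2, and the signal reaches the nucleus through a complex that holds Stat2 and Irf9. This complex binds the interferon-stimulated response element, a short sequence near the start of many antiviral genes, while interferon gamma acts through another site, the gamma-activated site. Pluripotent stem cells are known to respond weakly to interferons and to gain the response as they differentiate. Mll1 (gene symbol Kmt2a) and Mll2 (Kmt2b) are related enzymes that methylate histone H3 at lysine 4, a mark of active promoters.

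The bases just before the start of 6 listed genes are shown. These genes are among 15 called in both single mutants at day 4 and hold the response element before their start, which not all of the 15 do. Gbp2 and Irgm1 are among the 15 and hold it there as well, but are not shown. Capitals mark every match to GAAA, any 2 bases and GAAA, which reads as TTTC, any 2 bases and TTTC where it lies on the other strand, with overlapping matches joined. Sequences are from RefSeq, build GRCm38.p6, 5′ to 3′ along the gene's strand, and each ends at the last base before the start site.
Ifit1, chr19:34640739-34640888, plus strand: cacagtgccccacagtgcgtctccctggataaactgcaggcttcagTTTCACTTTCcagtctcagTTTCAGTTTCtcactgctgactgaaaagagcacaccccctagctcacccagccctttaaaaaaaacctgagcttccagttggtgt
Ifit3, chr19:34583329-34583528, plus strand: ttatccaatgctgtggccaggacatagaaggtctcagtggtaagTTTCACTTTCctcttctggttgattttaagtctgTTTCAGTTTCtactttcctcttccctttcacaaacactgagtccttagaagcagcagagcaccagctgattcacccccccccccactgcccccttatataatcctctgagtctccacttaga
Ifit3b, chr19:34607757-34607956, plus strand: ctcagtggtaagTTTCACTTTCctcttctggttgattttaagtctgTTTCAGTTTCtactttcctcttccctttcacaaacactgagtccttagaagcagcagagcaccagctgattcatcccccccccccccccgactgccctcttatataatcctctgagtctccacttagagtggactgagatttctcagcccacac
Isg15, chr4:156200819-156200968, minus strand: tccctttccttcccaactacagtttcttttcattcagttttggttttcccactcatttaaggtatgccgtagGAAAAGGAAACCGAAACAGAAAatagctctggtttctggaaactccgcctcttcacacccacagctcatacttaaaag
Rsad2, chr12:26456453-26456602, minus strand: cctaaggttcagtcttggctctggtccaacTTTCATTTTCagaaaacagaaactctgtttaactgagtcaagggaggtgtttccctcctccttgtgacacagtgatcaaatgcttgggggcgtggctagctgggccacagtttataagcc
Gbp7, chr3:142530186-142530335, plus strand: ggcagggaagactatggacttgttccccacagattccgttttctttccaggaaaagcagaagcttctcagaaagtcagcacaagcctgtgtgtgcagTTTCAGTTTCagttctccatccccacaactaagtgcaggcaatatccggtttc
Ifit1, Ifit3 and Ifit3b each held 2 matches, Isg15 held 3 that overlap one another, and Rsad2 and Gbp7 held 1. Of the 32 listed genes with a promoter window of 250 bases before to 50 bases after the start, 17 (53.1%) held this element on either strand, against 1079 of 27025 genes (3.99%). Of the 15 genes called in both, 13 had a window and 9 of these held the element, with Ifit2, Irf1, Oasl1 and Dtx3l lacking it. It was held by 8 of the 19 other listed genes with a window. TTCNNNGAA, the core of the gamma-activated site, was in 8 of the 32 (25.0%) against 2582 of 27025 genes (9.55%). A match describes the letters in the window and is not a measured binding site.

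The deposited counts came to 17700000 to 22800000 reads per library at day 0 and to 10700000 to 17100000 at day 4. Kmt2a stood at 2239, 2029 and 2156 normalized counts in the day 4 WT libraries and at 56.3, 69.5 and 42.1 in Mll1-KO, and was also low in double-KO (log2 difference -4.37, limma adjusted p = 1.1e-18). The gene-level count of Kmt2b did not fall in Mll2-KO at day 4 (0.14 ± 0.053, limma adjusted p = 0.037), so it does not check that deletion. Transcripts of the interferons themselves were near 0: 8 ligand genes were in the table and their sum did not pass 2.28 normalized counts in any day 4 library. Marker genes of cell types differed between the genotypes as well. At day 4 the 13 endoderm markers summed to 140000 to 144000 normalized counts in WT, 68800 to 74000 in Mll1-KO, 203000 to 208000 in Mll2-KO and 113000 to 117000 in double-KO, and the 8 stem cell markers to 3150 to 4050, 1630 to 1940, 5910 to 6890 and 3810 to 3860. At day 0 the endoderm sum was already 3470 to 3860 in Mll1-KO and 3400 to 3790 in double-KO, against 20300 to 21600 in WT and 20400 to 21900 in Mll2-KO. The part of these differences in the results that follow was not tested, and in bulk RNA fewer cells expressing a gene and less of its RNA per cell cannot be told apart.

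At day 4 the listed genes were shifted upward in Mll1-KO and downward in Mll2-KO. Of the 37 that passed the filter on low values (at least 10 normalized counts in at least 3 libraries), 27 rose and 1 fell in Mll1-KO against WT, where 16.5% of the 14303 genes tested rose and 19.2% fell. Of the 27, Mx2 and Rtp4 passed the filter only through the Mll1-KO libraries. In Mll2-KO against WT, 3 rose and 19 fell, where 25.4% of all genes rose and 20.3% fell. Calls are from limma on log2(normalized count + 1) with Benjamini-Hochberg adjusted p under 0.05 over all genes, and differences below are on that log2 scale with their standard error (SE), which understates changes of low genes. The median difference of the 37 was 0.54 in Mll1-KO, where the median of all genes was -0.0024, and -0.57 in Mll2-KO, where that of all genes was 0.040. Dividing by column totals in place of the authors' size factors gave 28 rises and 1 fall, and 3 rises and 19 falls, while the split over all genes turned to 3137 rises and 2063 falls in Mll1-KO and 2045 and 3885 in Mll2-KO. Quantile scaling gave 6 rises and 16 falls in Mll2-KO. A fit with all 24 libraries called 14 rises in Mll1-KO, and 16 were called without Mll1-KO replicate 3.

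In all, 15 of the 37 (40.5%) rose in Mll1-KO and also fell in Mll2-KO, whereas 775 of all 14303 genes (5.42%) did so. None did the reverse, which 1266 of all genes did. The opposite shift was already known for these data when the comparison was chosen, so this share is a description and no independent support. Both comparisons use the same 3 WT libraries. The 15 were Ifit1, Ifit2, Ifit3, Ifit3b, Isg15, Irf1, Oasl1, Rsad2, Usp18, Gbp2, Gbp7, Parp9, Dtx3l, Eif2ak2 and Irgm1. The count depended on the fit: 7 of the 15 kept both calls with all 24 libraries, and 9 genes had both calls without WT replicate 2, WT replicate 3 or Mll1-KO replicate 3. Ifit1, Ifit3, Parp9 and Eif2ak2 were called both ways under every alternative run. Of the others, 10 rose in Mll1-KO only, 4 fell in Mll2-KO only (Ddx58, Ifih1, Parp14 and Igtp), 2 rose in both (Bst2 and Slfn2), 1 fell in Mll1-KO only (Trim25), 1 rose in Mll2-KO only (Xaf1), and 4 were called in neither comparison.

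**Figure D1:**
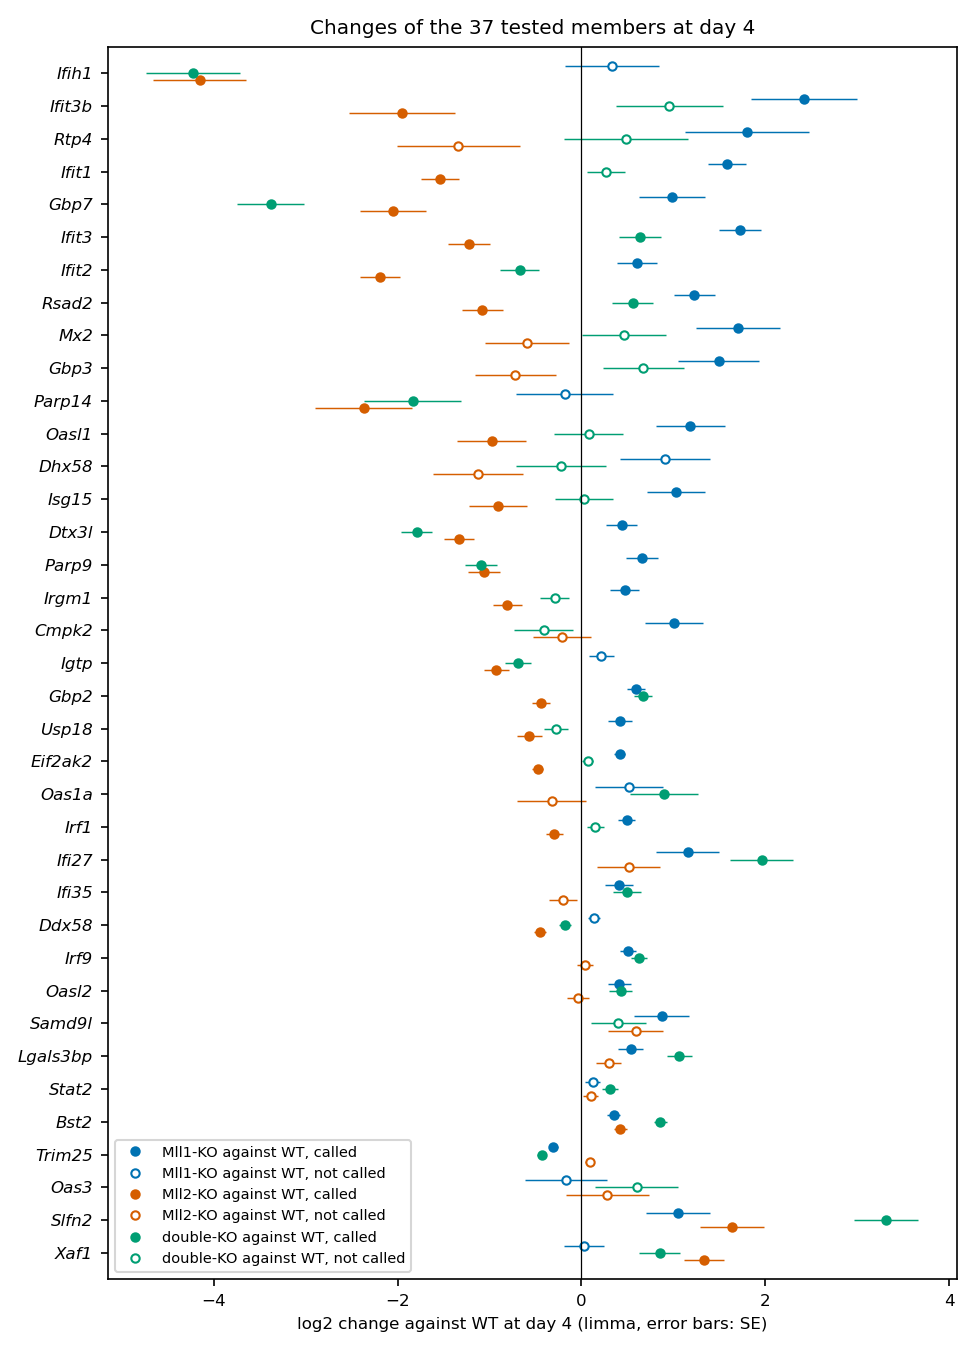
Log2 change against WT at day 4 for the 37 tested genes (x axis; bars are SE from limma), one row per gene, ordered by the gap between Mll1-KO and Mll2-KO, with filled points for calls and open points for values not called. Most Mll1-KO points lie to the right of 0 and most Mll2-KO points to the left, with Trim25, Oas3, Slfn2 and Xaf1 at the other end of the order.

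The Ifit genes, whose proteins bind viral RNA ends and block its translation, were all among the 15. They sit together on chromosome 19 (GRCm38), with Ifit2 at 34550694 to 34576419, Ifit3 at 34583531 to 34588731, Ifit3b at 34607970 to 34613401 and Ifit1 at 34640871 to 34650009, all on the plus strand. In normalized counts at day 4, Ifit1 stood at 45.7, 49.1 and 36.5 in WT, 121, 135 and 143 in Mll1-KO, 13.7, 12.2 and 17.5 in Mll2-KO and 62.7, 41.4 and 55.9 in double-KO. The WT, Mll1-KO and Mll2-KO libraries formed 3 ranges that did not overlap, and double-KO overlapped WT. Against WT, Ifit1 rose in Mll1-KO (1.59 ± 0.21, limma adjusted p = 1.2e-06) and fell in Mll2-KO (-1.54 ± 0.21, limma adjusted p = 1.3e-06).

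Ifit3 stood at 26.4, 25.1 and 24.7 in WT, 81.6, 80.6 and 98.2 in Mll1-KO, 9.80, 10.2 and 10.9 in Mll2-KO and 51.5, 35.3 and 35.4 in double-KO, again with all Mll1-KO libraries above WT and all Mll2-KO libraries below. It rose by 1.73 ± 0.23 (limma adjusted p = 1.4e-06) in Mll1-KO and changed by -1.23 ± 0.23 (limma adjusted p = 9.5e-05) in Mll2-KO. Its near copy Ifit3b, whose longest transcript is 97.8% identical to that of Ifit3 over 1700 aligned bases, stood at 9.15, 9.02 and 2.36 in WT, 45.0, 36.4 and 29.4 in Mll1-KO, 4.90, 0 and 0 in Mll2-KO and 17.9, 10.7 and 10.3 in double-KO. Ifit3b rose in Mll1-KO (2.42 ± 0.58, limma adjusted p = 0.0018) and fell in Mll2-KO (-1.95 ± 0.58, limma adjusted p = 0.0077), where 1 library overlapped WT. Reads may have been divided between the copies, so their separate values are uncertain, and the upstream bases printed above are near copies as well (95.4% identical over 174 aligned bases). Ifit2 stood at 68.1, 81.2 and 66.0 in WT, 114, 111 and 102 in Mll1-KO, 20.6, 13.2 and 12.0 in Mll2-KO and 58.2, 41.4 and 36.5 in double-KO. It rose in Mll1-KO (0.60 ± 0.22, limma adjusted p = 0.03) and fell in Mll2-KO (-2.19 ± 0.22, limma adjusted p = 8.2e-09), and it also fell in double-KO (-0.67 ± 0.22, limma adjusted p = 0.011), whereas Ifit3 rose there (0.64 ± 0.23, limma adjusted p = 0.022). The Ifit2 rise in Mll1-KO was lost in 7 of 17 alternatives. In double-KO the Ifit2 fall was lost in 4 of 17 and the Ifit3 rise in 5 of 17.

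**Figure D2:**
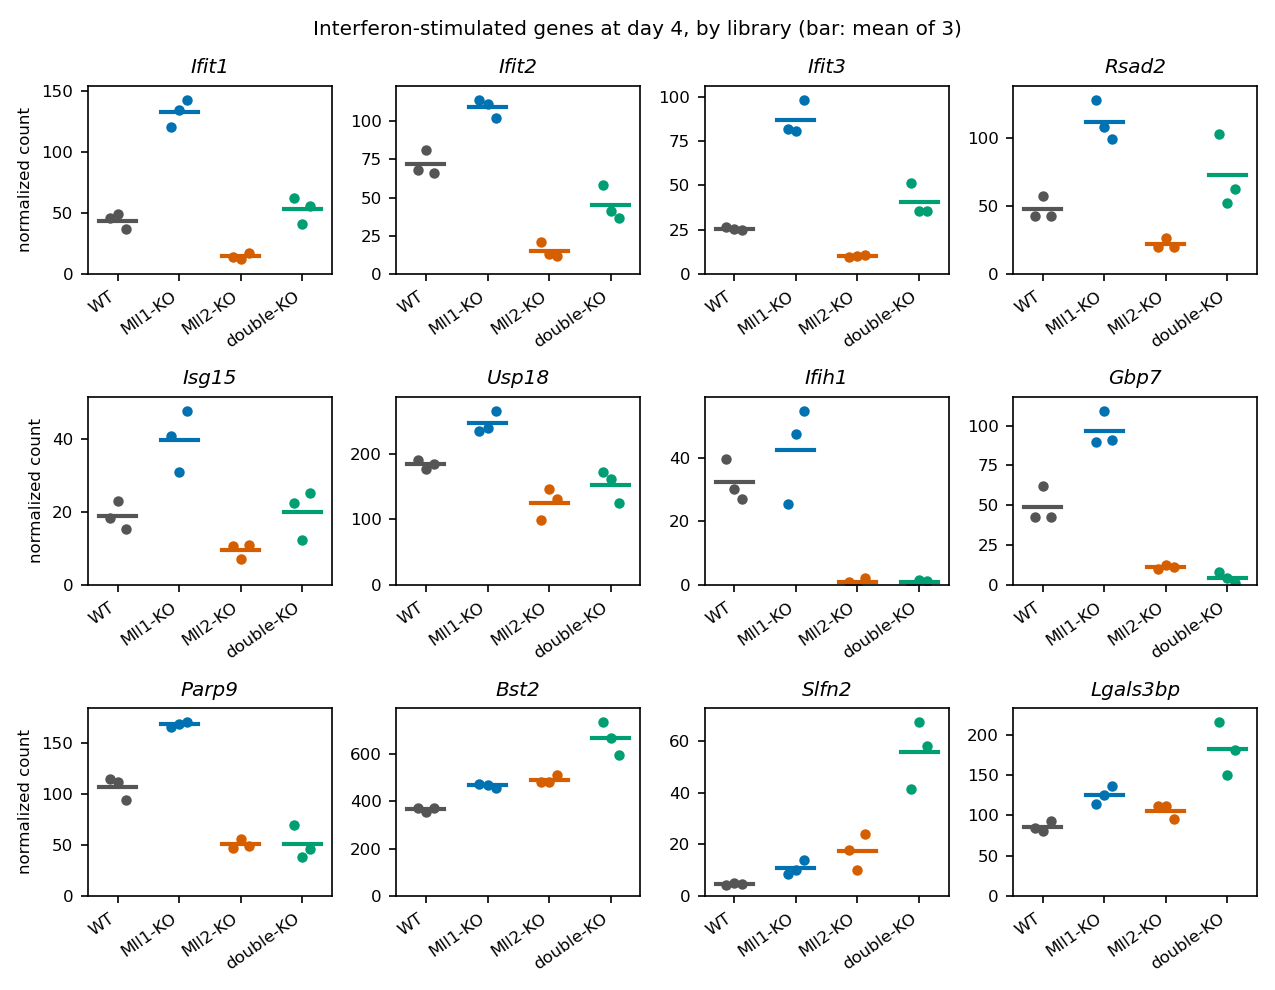
Normalized counts at day 4 (y axis, from 0) of 12 of the listed genes in each library, by genotype, with points for the 3 libraries and a bar for their mean. For Ifit1, Ifit3, Rsad2 and Usp18 the Mll1-KO libraries lie above WT and the Mll2-KO libraries below it, Bst2 and Slfn2 are above WT in all 3 mutants, and Ifih1 and Gbp7 are low in both Mll2-KO and double-KO.

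Isg15, the ubiquitin-like protein that is attached to other proteins after interferon, and Usp18, the protease that removes it and also damps the type I receptor, moved the same way. Isg15 stood at 18.3, 23.1 and 15.3 in WT, 40.8, 30.9 and 47.7 in Mll1-KO, 10.8, 7.13 and 10.9 in Mll2-KO and 22.4, 12.3 and 25.1 in double-KO, with WT between the mutants and no overlap with either. Its differences were 1.03 ± 0.32 (limma adjusted p = 0.013) in Mll1-KO and -0.91 ± 0.32 (limma adjusted p = 0.021) in Mll2-KO. Usp18 stood at 190.0, 176 and 184 in WT, 235, 238 and 265 in Mll1-KO, 99.0, 146 and 131 in Mll2-KO and 172, 161 and 124 in double-KO. It rose modestly in Mll1-KO (0.42 ± 0.13, limma adjusted p = 0.015) and fell in Mll2-KO (-0.56 ± 0.13, limma adjusted p = 0.0011).

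Rsad2 encodes viperin, which makes a nucleotide that stops viral RNA synthesis from a substrate supplied by Cmpk2, the gene next to it on chromosome 12. Rsad2 stood at 42.7, 57.1 and 42.4 in WT, 128, 108 and 99.6 in Mll1-KO, 19.6, 26.5 and 19.6 in Mll2-KO and 103, 52.1 and 62.7 in double-KO. All Mll1-KO libraries were above WT and all Mll2-KO libraries below it (1.23 ± 0.22, limma adjusted p = 9.7e-05 and -1.08 ± 0.22, limma adjusted p = 0.00029). Cmpk2 rose in Mll1-KO (1.00 ± 0.32, limma adjusted p = 0.016) and was not called in Mll2-KO (-0.21, limma adjusted p = 0.62). Its values were 23.4, 31.1 and 18.9 in WT, 49.2, 51.9 and 46.3 in Mll1-KO, 26.5, 21.4 and 15.3 in Mll2-KO and 24.6, 24.5 and 9.12 in double-KO. The neighbours thus shared the rise, and the fall was called for Rsad2, with the difference between them not tested.

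Eif2ak2 encodes PKR, the kinase that halts translation when it meets double-stranded RNA, and was among the more abundant of the 15. It stood at 612, 633 and 582 in WT, 820.0, 819.9 and 802 in Mll1-KO, 445, 451 and 416 in Mll2-KO and 654, 609 and 655 in double-KO. The replicates were tight, and both shifts, though small, were called (0.42 ± 0.06, limma adjusted p = 4.9e-06 in Mll1-KO, -0.48 ± 0.06, limma adjusted p = 4.7e-07 in Mll2-KO). Oasl1, which restrains translation of Irf7, was low throughout at 8.13, 10.0 and 10.6 in WT, 19.7, 19.9 and 30.8 in Mll1-KO, 4.90, 5.10 and 3.27 in Mll2-KO and 12.3, 9.20 and 9.12 in double-KO. In Mll1-KO it rose (1.19 ± 0.38, limma adjusted p = 0.016), and its fall in Mll2-KO (-0.98 ± 0.38, limma adjusted p = 0.037) was lost in 8 of 15 alternatives.

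Among the transcription factors of the response, Irf1 took the opposite shifts and Irf9 only the rise. Irf1, which responds to both interferon classes, stood at 375, 460.1 and 352 in WT, 508, 547 and 609 in Mll1-KO, 323, 315 and 324 in Mll2-KO and 476, 452 and 389 in double-KO. It rose in Mll1-KO (0.49 ± 0.092, limma adjusted p = 0.00015) and fell in Mll2-KO (-0.29 ± 0.092, limma adjusted p = 0.011). Irf9, the DNA-binding part of the type I complex, stood at 217, 225 and 246 in WT, 331, 313 and 335 in Mll1-KO, 248, 242 and 219 in Mll2-KO and 374, 317 and 375 in double-KO. Its level rose in Mll1-KO (0.51 ± 0.088, limma adjusted p = 6.3e-05) and double-KO (0.63 ± 0.088, limma adjusted p = 1.8e-06) and was not called in Mll2-KO (0.042, limma adjusted p = 0.73). Irf9 overlaps Rnf31 on the same strand, so reads from the shared part cannot be assigned with certainty. Stat2, its partner, was called in neither single mutant (0.12, limma adjusted p = 0.27 and 0.10, limma adjusted p = 0.34) and rose in double-KO (0.31 ± 0.083, limma adjusted p = 0.003). Irf7, the factor that amplifies interferon production, did not pass the filter and stood at 3.05, 5.01 and 1.18 in WT, 25.3, 16.6 and 9.82 in Mll1-KO, 1.96, 1.02 and 3.27 in Mll2-KO and 8.95, 6.13 and 3.42 in double-KO.

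None of the 3 cytosolic RNA sensors of the RIG-I family was called higher in Mll1-KO at day 4, and 2 fell in Mll2-KO. Ifih1 encodes MDA5, the sensor of long double-stranded RNA, and was at or near 0 in the Mll2-KO and double-KO libraries, at 39.6, 30.1 and 27.1 in WT, 25.3, 47.4 and 54.7 in Mll1-KO, 0.98, 0 and 2.18 in Mll2-KO and 0, 1.53 and 1.14 in double-KO. Over the 3 libraries 92 reads were counted in WT, 3 in Mll2-KO and 2 in double-KO. The ratio of WT to Mll2-KO was 31.6 (95% counting interval 10.5 to 156) and that of WT to double-KO 39.4 (10.6 to 330), intervals that cover counting error only. Both falls passed the test (limma adjusted p = 3.0e-07 and 1.6e-07), and Mll1-KO overlapped WT (0.33, limma adjusted p = 0.65).

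Ddx58, which encodes RIG-I, the sensor of RNA with a 5′ triphosphate, stood at 554, 557 and 556 in WT, 617, 572 and 642 in Mll1-KO, 407, 414 and 402 in Mll2-KO and 491, 466 and 522 in double-KO. It fell in Mll2-KO (-0.45 ± 0.065, limma adjusted p = 3.7e-06). Its Mll1-KO difference was not called (0.13, limma adjusted p = 0.11), although all Mll1-KO libraries were above WT. Dhx58, the third of the RIG-I family, was not called in either single mutant (0.91, limma adjusted p = 0.15 and -1.12, limma adjusted p = 0.064), and it overlaps an antisense gene, with the use of strand in counting not given in the sources used here. Trim25, the ubiquitin ligase that acts with RIG-I, went against the list. At 1646, 1688 and 1725 in WT, 1383, 1362 and 1340.5 in Mll1-KO, 1839.6, 1846 and 1708 in Mll2-KO and 1304, 1171 and 1273 in double-KO it was lower in every Mll1-KO and double-KO library than in any WT library (-0.31 ± 0.049, limma adjusted p = 1.8e-05 and -0.43 ± 0.049, limma adjusted p = 5.1e-08). Trim25 was the only listed gene that fell in Mll1-KO.

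The interferon-inducible GTPases, which attack the vacuoles of intracellular pathogens, included some of the largest differences. Gbp7 on chromosome 3 (142530342 to 142550149, plus strand) stood at 42.7, 62.2 and 42.4 in WT, 90.0, 109 and 91.1 in Mll1-KO, 9.80, 12.2 and 10.9 in Mll2-KO and 7.83, 4.60 and 1.14 in double-KO. Its 4 genotypes did not overlap at all, in the order Mll1-KO, WT, Mll2-KO, double-KO. Gbp7 shares exon bases with Gm43802 on the same strand, so reads from the shared part cannot be assigned with certainty. The differences from WT were 0.98 ± 0.36 (limma adjusted p = 0.035) in Mll1-KO, -2.05 ± 0.36 (limma adjusted p = 5.0e-05) in Mll2-KO and -3.38 ± 0.36 (limma adjusted p = 2.1e-08) in double-KO, and the call in Mll1-KO was lost in 8 of 17 alternatives. Gbp2, its neighbour at 142620602 to 142638008, parted from it in double-KO. At 248, 233 and 229.7 in WT, 361, 337 and 379 in Mll1-KO, 187, 149 and 189.9 in Mll2-KO and 362, 426 and 346 in double-KO it fell in Mll2-KO (-0.44 ± 0.10, limma adjusted p = 0.0008) and rose in both Mll1-KO (0.60 ± 0.10, limma adjusted p = 3.7e-05) and double-KO (0.67 ± 0.10, limma adjusted p = 4.2e-06). Gbp3, which lies between them, was low and variable at 12.2, 9.02 and 7.07 in WT, 42.2, 14.3 and 35.1 in Mll1-KO, 5.88, 7.13 and 3.27 in Mll2-KO and 28.0, 13.8 and 9.12 in double-KO and rose in Mll1-KO (1.50 ± 0.44, limma adjusted p = 0.0097).

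Irgm1, an immunity-related GTPase that regulates the others, stood at 85.4, 78.2 and 77.8 in WT, 115, 109 and 111 in Mll1-KO, 44.1, 48.9 and 43.6 in Mll2-KO and 80.6, 61.3 and 57.0 in double-KO, rising in Mll1-KO (0.47 ± 0.16, limma adjusted p = 0.022) and falling in Mll2-KO (-0.81 ± 0.16, limma adjusted p = 0.00017). Igtp, a GTPase of the same family, stood at 147, 155 and 163 in WT, 189.9, 181 and 171 in Mll1-KO, 83.3, 79.5 and 80.7 in Mll2-KO and 119, 98.1 and 75.3 in double-KO. It fell in Mll2-KO (-0.92 ± 0.14, limma adjusted p = 5.4e-06) and double-KO (-0.69 ± 0.14, limma adjusted p = 0.00017), and its Mll1-KO difference was not called (0.22, limma adjusted p = 0.23) although those libraries did not overlap WT. Igtp overlaps Irgm2 on the same strand.

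Parp9 and Dtx3l encode the partners of one ADP-ribosylation and ubiquitin ligase complex and lie head to head on chromosome 16, at 35938470 to 35972605 on the plus strand and 35926511 to 35939151 on the minus strand. Parp9 stood at 115, 112 and 94.2 in WT, 166, 169 and 171 in Mll1-KO, 47.0, 56.1 and 49.1 in Mll2-KO and 69.4, 38.3 and 45.6 in double-KO. Parp9 rose in Mll1-KO (0.66 ± 0.17, limma adjusted p = 0.0047) and fell in Mll2-KO (-1.06 ± 0.17, limma adjusted p = 2.1e-05) and double-KO (-1.09 ± 0.17, limma adjusted p = 1.1e-05). Dtx3l followed, at 121, 111 and 100.1 in WT, 145, 151 and 154 in Mll1-KO, 48.0, 40.8 and 41.5 in Mll2-KO and 24.6, 33.7 and 36.5 in double-KO, with 0.44 ± 0.17 (limma adjusted p = 0.043) in Mll1-KO, -1.33 ± 0.17 (limma adjusted p = 4.4e-07) in Mll2-KO and -1.79 ± 0.17 (limma adjusted p = 2.0e-09) in double-KO. The call for Dtx3l in Mll1-KO was lost in 7 of 17 alternatives, and because the genes overlap on opposite strands their counts may share reads. Parp14, a related ADP-ribosyltransferase nearby at 35832874 to 35871544 on the minus strand, stood at 22.4, 25.1 and 10.6 in WT, 15.5, 14.3 and 18.2 in Mll1-KO, 1.96, 3.06 and 3.27 in Mll2-KO and 1.12, 12.3 and 4.56 in double-KO. It fell in Mll2-KO (-2.37 ± 0.53, limma adjusted p = 0.00068) and double-KO (-1.83 ± 0.53, limma adjusted p = 0.0054) and was not called in Mll1-KO (-0.18, limma adjusted p = 0.83). Parp14 overlaps Gm49730 on the same strand.

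A smaller set was highest in double-KO. Bst2 encodes tetherin, which holds budding virus particles on the cell surface, and stood at 372, 356 and 371 in WT, 475, 471 and 459 in Mll1-KO, 483, 481 and 511 in Mll2-KO and 736, 667 and 596 in double-KO. It rose in Mll1-KO (0.35 ± 0.071, limma adjusted p = 0.00033), Mll2-KO (0.42 ± 0.071, limma adjusted p = 2.7e-05) and double-KO (0.86 ± 0.071, limma adjusted p = 2.6e-10), with no mutant library overlapping WT. Slfn2, a schlafen protein that guards transfer RNA in lymphocytes, stood at 4.06, 5.01 and 4.71 in WT, 8.44, 9.93 and 14.0 in Mll1-KO, 17.6, 10.2 and 24.0 in Mll2-KO and 41.4, 67.5 and 58.2 in double-KO. It rose in Mll1-KO (1.05 ± 0.35, limma adjusted p = 0.021), Mll2-KO (1.64 ± 0.35, limma adjusted p = 0.00045) and double-KO (3.32 ± 0.35, limma adjusted p = 1.8e-08).

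Lgals3bp, a secreted glycoprotein, stood at 84.3, 80.2 and 93.1 in WT, 114, 126 and 136 in Mll1-KO, 112, 111 and 94.9 in Mll2-KO and 216, 150.2 and 181 in double-KO and rose in Mll1-KO (0.54 ± 0.14, limma adjusted p = 0.0032) and double-KO (1.07 ± 0.14, limma adjusted p = 4.6e-07). Ifi27, a small mitochondrial protein, did likewise (1.16 ± 0.34, limma adjusted p = 0.01 and 1.96 ± 0.34, limma adjusted p = 3.5e-05), as did Oasl2 (0.41 ± 0.12, limma adjusted p = 0.01 and 0.43 ± 0.12, limma adjusted p = 0.0052) and Ifi35 (0.41 ± 0.15, limma adjusted p = 0.037 and 0.49 ± 0.15, limma adjusted p = 0.0086). Ifi35 overlapped WT in Mll1-KO. Xaf1, a pro-apoptotic factor, was the reverse of the main pattern in Mll2-KO. It stood at 38.6, 46.1 and 30.6 in WT, 28.1, 43.0 and 47.7 in Mll1-KO, 111, 74.4 and 111 in Mll2-KO and 64.9, 82.8 and 61.6 in double-KO, rising in Mll2-KO (1.33 ± 0.22, limma adjusted p = 1.9e-05) and double-KO (0.85 ± 0.22, limma adjusted p = 0.0021) and not called in Mll1-KO (0.027, limma adjusted p = 0.94).

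Low genes added to the count of rises in Mll1-KO. Mx2, a GTPase of the Mx family, stood at 4.06, 7.02 and 7.07 in WT, 23.9, 13.2 and 30.8 in Mll1-KO, 3.92, 2.04 and 5.46 in Mll2-KO and 7.83, 6.13 and 12.5 in double-KO. Rtp4 stood at 6.10, 1.00 and 2.36 in WT, 11.3, 11.0 and 12.6 in Mll1-KO, 1.96, 0 and 0 in Mll2-KO and 5.60, 1.53 and 6.84 in double-KO. These 2 would have failed the filter without the Mll1-KO libraries, so they had to differ and their tests are not given. Without them, 25 of 35 rose and 1 fell in Mll1-KO against WT, and 25 were higher and 2 lower than in Mll2-KO. Samd9l, a translation repressor, stood at 16.3, 20.0 and 10.6 in WT, 22.5, 30.9 and 33.7 in Mll1-KO, 21.6, 31.6 and 18.5 in Mll2-KO and 21.3, 23.0 and 17.1 in double-KO and rose in Mll1-KO (0.87 ± 0.30, limma adjusted p = 0.024). The oligoadenylate synthetases that make the messenger for RNase L were near the floor. Oas1a was not called in either single mutant (0.52, limma adjusted p = 0.29 and -0.32, limma adjusted p = 0.5) and rose in double-KO (0.89 ± 0.37, limma adjusted p = 0.047), a call lost in 9 of 16 alternatives. Neither single mutant was called for Oas3 either (-0.17, limma adjusted p = 0.81 and 0.28, limma adjusted p = 0.64). Irf7, Oas2, Mx1, Zbp1 and Ifi44 were not tested at day 4, and apart from Irf7 none of them passed 7.98 normalized counts in any day 4 library.

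Compared directly with Mll2-KO, the Mll1-KO cells held more of most listed transcripts. At day 4, 27 of the 37 were higher in Mll1-KO and 2 lower, against 28.1% and 32.5% of all genes, and the median difference was 1.14 beside -0.028 for all genes. Under scaling to column totals the listed genes split 29 to 2 and all genes 5695 to 2905. Ifit1 differed by 3.12 ± 0.21 (limma adjusted p = 2.0e-12), Gbp7 by 3.03 ± 0.36 (limma adjusted p = 7.9e-08), Ifit3 by 2.95 ± 0.23 (limma adjusted p = 3.6e-11) and Ifit2 by 2.79 ± 0.22 (limma adjusted p = 3.5e-11). The ratio of Mll1-KO to Mll2-KO for Ifih1 was 41.7 (95% counting interval 13.9 to 206). Xaf1 (-1.31 ± 0.22, limma adjusted p = 1.3e-05) and Trim25 (-0.40 ± 0.049, limma adjusted p = 1.2e-07) were the 2 lower in Mll1-KO. By mean over the 3 libraries, Mll1-KO lay above WT and WT above Mll2-KO for 27 of the 42 genes, with Irf7, too low to test, among them. Trim25, Oas3 and Oas2 had the reverse order. The share of all genes in either order was not computed.

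The double-KO cells held both rises and falls of listed genes. In double-KO against WT, 13 listed genes rose and 9 fell, where 27.6% of all genes rose and 23.3% fell, and the median was 0.31 beside 0.026. Quantile scaling gave 19 rises and 8 falls, and scaling to column totals 11 and 10, with all genes split 2898 to 4106. The falls were led by Ifih1, Gbp7 (-3.38), Parp14 (-1.83), Dtx3l (-1.79) and Parp9 (-1.09), and the rises by Slfn2 (3.32), Ifi27 (1.96), Lgals3bp (1.07), Oas1a (0.89) and Bst2 (0.86). Ifit1 and Isg15 were not called (0.27, limma adjusted p = 0.29 and 0.032, limma adjusted p = 0.94). Against Mll1-KO, 5 were higher in double-KO and 21 lower (31.1% and 23.7% of all genes; 4 and 22, with all genes split 2685 to 4731, under column totals), and against Mll2-KO 23 were higher and 3 lower (19.4% and 20.9%). For Ifit1 those differences were -1.32 ± 0.21 (limma adjusted p = 7.7e-06) and 1.81 ± 0.21 (limma adjusted p = 1.3e-07). For Gbp7 they were -4.36 ± 0.36 (limma adjusted p = 2.2e-10) and -1.34 ± 0.36 (limma adjusted p = 0.0044).

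A departure of double-KO from the sum of the single effects was called for 5 of the 37. The test of non-additivity, which asks whether the double-KO difference departs from that sum on the log2 scale, called 2 genes higher and 3 lower, where 7.59% and 6.05% of all genes were called. Gbp7 lay below the sum (-2.32 ± 0.51, limma adjusted p = 0.0034), as did Dtx3l (-0.90 ± 0.24, limma adjusted p = 0.012) and Trim25 (-0.22 ± 0.069, limma adjusted p = 0.037). Gbp2 (0.51 ± 0.14, limma adjusted p = 0.017) and Ifit2 (0.91 ± 0.30, limma adjusted p = 0.046) lay above it. The counts were fragile: from 0 to 2 above and from 2 to 5 below when single libraries were left out, with the 5 below reached without double-KO replicate 1. Column totals gave 1 and 3, with all genes split 931 to 991. The calls for Gbp7 and Dtx3l held under every alternative. A p that misses the threshold does not show that the effects add.

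At day 0 only 24 of the 42 passed the filter, and in the main test more of them fell than rose in each mutant. In Mll1-KO against WT, 3 rose and 6 fell (12.5% and 25%), where 21.3% of the 13984 genes tested rose and 18.7% fell. The median was -0.038 beside 0.0049. This split was not stable: with single libraries left out, 2 to 4 rose and 3 to 4 fell. Ddx58 (0.90 ± 0.085, limma adjusted p = 5.3e-08), Dtx3l (0.66 ± 0.11, limma adjusted p = 5.4e-05) and Parp9 (0.31 ± 0.11, limma adjusted p = 0.027) rose. Ddx58 stood at 734, 772 and 586 in WT, 1269, 1315 and 1302 in Mll1-KO, 618, 734 and 719.9 in Mll2-KO and 1223, 1201 and 1109.8 in double-KO. Igtp (-0.83 ± 0.32, limma adjusted p = 0.045), Oas3 (-0.85 ± 0.19, limma adjusted p = 0.0012) and Stat2 (-0.39 ± 0.079, limma adjusted p = 0.00054) were among the falls, whose count went from 6 to 3 without WT replicate 1 or 2, or Mll1-KO replicate 2 or 3. Quantile scaling gave 4 rises and 3 falls and moved the median to 0.066, and scaling to column totals gave 2 and 6, with all genes split 2164 to 3398.

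In Mll2-KO at day 0, 1 rose and 8 fell, where 22.8% of all genes rose and 24.3% fell, and the median was -0.49 beside -0.0049. Samd9l stood at 45.2, 33.4 and 43.5 in WT, 43.2, 41.0 and 38.8 in Mll1-KO, 9.85, 4.03 and 9.15 in Mll2-KO and 19.7, 13.5 and 9.46 in double-KO (-2.33 ± 0.34, limma adjusted p = 1.4e-05 in Mll2-KO). Irf1 stood at 296, 293 and 289.7 in WT, 269.6, 222 and 276 in Mll1-KO, 162, 175 and 123 in Mll2-KO and 239, 216 and 212 in double-KO, and Mll2-KO was below every other group (-0.95 ± 0.12, limma adjusted p = 3.4e-06). Dtx3l stood at 205, 183 and 193 in WT, 279, 322 and 320.4 in Mll1-KO, 111, 104 and 106 in Mll2-KO and 174, 184 and 192 in double-KO (-0.85 ± 0.11, limma adjusted p = 2.3e-06). Irf1 and Dtx3l thus fell in Mll2-KO on both days, whereas Samd9l was not called at day 4 (0.59, limma adjusted p = 0.11). Cmpk2 (-2.29 ± 0.51, limma adjusted p = 0.00099) and Igtp (-1.06 ± 0.32, limma adjusted p = 0.011) were the other large falls, and Bst2 was the 1 rise (0.23 ± 0.061, limma adjusted p = 0.0045). Without Mll2-KO replicate 2, 2 rises were called.

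In double-KO at day 0, 4 rose and 9 fell (26.6% and 27.1% of all genes), and Igtp fell furthest, with values of 79.6, 68.4 and 52.0 in WT, 38.1, 36.1 and 35.4 in Mll1-KO, 34.9, 36.3 and 23.6 in Mll2-KO and 21.7, 7.58 and 8.60 in double-KO (-2.44 ± 0.32, limma adjusted p = 2.4e-06). The median was -0.10 beside -0.00096, and quantile scaling moved it to 0.12, with 5 rises and 7 falls. Of the 4 rises, Oasl2 passed the filter on low values only through the double-KO libraries, so its rise is no independent result. The rises came to 2 without WT replicate 3. Set against Mll2-KO, Mll1-KO was higher for 12 genes and lower for 4 (31.4% and 29.3% of all genes). Scaling to column totals made this 11 and 6, with all genes split 3688 to 4746. Of the 12, Irgm1 passed the filter only through the Mll1-KO libraries, so its difference is no independent result.

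**Figure D3:**
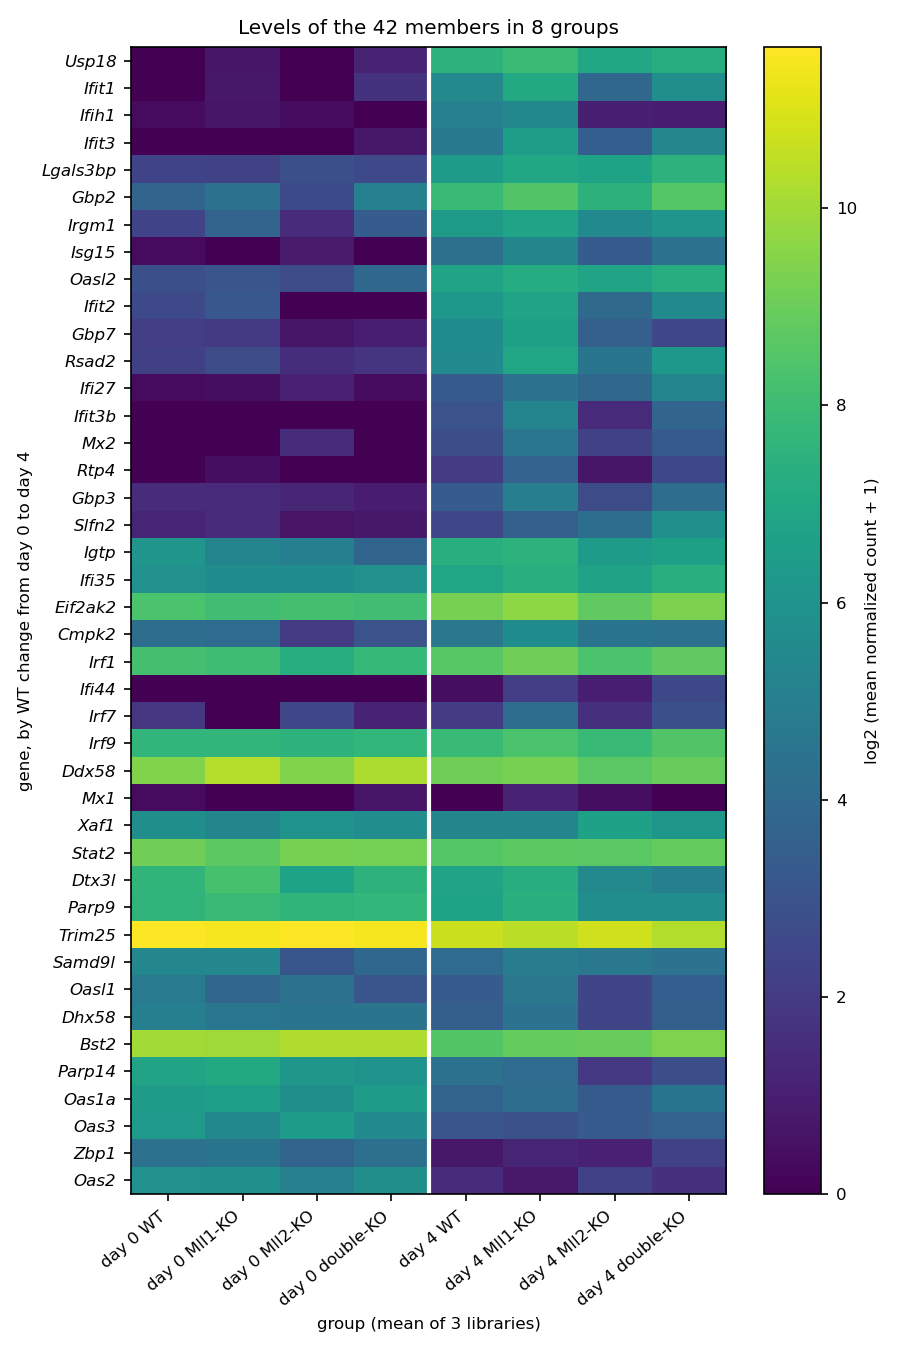
Mean level of each of the 42 genes (rows, ordered by the WT change from day 0 to day 4) in the 8 groups (columns), as log2 of the mean normalized count + 1 over 3 libraries, dark for low and bright for high. The upper rows, from Usp18 and Ifit1 down to Slfn2, are darker at day 0 than at day 4, while Trim25, Bst2 and Ddx58 are bright on both days.

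Several listed genes had no read at all before differentiation. Over the 3 WT libraries no read was counted at day 0 for Usp18, Ifit1, Ifit3, Ifit3b, Mx2 or Rtp4. Against a floor of 3 counts per library, Usp18 was at least 79.7-fold higher at day 4, Ifit1 at least 19.0-fold and Ifit3 at least 11.0-fold. Isg15 and Ifih1 had 1 read each at day 0, with ratios of 74.6 (95% counting interval 12.8 to 3000) and 127 (22.3 to 5070). In WT, 22 of 39 genes tested over both days rose and 14 fell, where 43% of 15114 genes rose and 39.9% fell. The median was 0.96, or 0.93 with the 6 genes without a day 0 read set at their lower bounds, beside 0.044 for all genes. Among the rises were Oasl2 (4.74 ± 0.50, limma adjusted p = 1.4e-09), Gbp2 (4.27 ± 0.30, limma adjusted p = 2.0e-13), Irgm1 (4.10 ± 0.40, limma adjusted p = 2.5e-10) and Lgals3bp (4.09 ± 0.35, limma adjusted p = 1.9e-11).

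The oligoadenylate synthetases went the other way with differentiation. Oas3 fell from 76.6, 64.6 and 90.9 to 4.06, 9.02 and 9.42 in WT (-3.26 ± 0.31, limma adjusted p = 1.9e-10), Oas2 from 52.8, 63.8 and 55.1 to 2.03, 1.00 and 2.36 (-4.41 ± 0.47, limma adjusted p = 1.7e-09) and Oas1a from 94.9, 91.1 and 71.4 to 6.10, 16.0 and 14.1 (-2.82 ± 0.28, limma adjusted p = 5.0e-10). Zbp1, a sensor of left-handed nucleic acid, fell too (-3.80 ± 0.55, limma adjusted p = 4.2e-07), as did Parp14 (-2.51 ± 0.42, limma adjusted p = 3.6e-06) and Bst2 (-1.52 ± 0.065, limma adjusted p = 3.5e-18). From day 0 to day 4, then, the Ifit genes went up in WT while these synthetases went down. Day and culture medium change together, so their effects cannot be told apart.

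Per kilobase of exon, a scale on which genes can be compared with one another, Bst2 was the most abundant of the list in WT at both days, at 1162 ± 26.3 (SD, n = 3) normalized counts per kb at day 0 and 406 ± 10.0 at day 4. Trim25 was second (548 ± 13.8 and 293 ± 6.83). At day 4 they were followed by Eif2ak2 at 119 ± 4.97, Irf1 at 99.5 ± 14.3 and Gbp2 at 94.1 ± 3.90, the last 2 of which overlap within their spread. The sum over the list, to which the abundant genes add most, was 5800 to 5980 normalized counts in WT at day 4, 7060 to 7330 in Mll1-KO, 5090 to 5360 in Mll2-KO and 5880 to 6560 in double-KO.

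The day 4 effects differed from the day 0 effects by a test of the difference itself for part of the list. For Mll1-KO, 10 genes had a more positive effect at day 4 and 1 a more negative one, against 15% and 19% of all genes. Eif2ak2, Irf1, Stat2, Irf9, Bst2, Oasl1, Igtp and Ifi35 were among the 10, led in abundance by Bst2 (0.40 ± 0.091, limma adjusted p = 0.0013), and Irf1 differed by 0.69 ± 0.17 (limma adjusted p = 0.0018). Ddx58, which had risen at day 0, was the 1 (-0.77 ± 0.11, limma adjusted p = 4.8e-06). For Mll2-KO, 5 genes were more positive at day 4 and 6 more negative (19.3% and 17% of all genes). Parp9 (-1.09 ± 0.22, limma adjusted p = 0.00029) and Eif2ak2 (-0.37 ± 0.10, limma adjusted p = 0.0041) were more negative, and Xaf1 (1.18 ± 0.38, limma adjusted p = 0.016), Irf1 (0.65 ± 0.17, limma adjusted p = 0.0029) and Samd9l (2.92 ± 0.46, limma adjusted p = 1.4e-05) more positive. Scaling to column totals made the Mll2-KO counts 5 and 9, with all genes split 2063 to 3433 (3291 to 1793 for Mll1-KO), and quantile scaling 7 and 5. With a pseudocount of 5 in place of 1 the Mll1-KO count of more positive effects was 18, and without WT replicate 1 of day 0 the more negative count was 2.

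The receptors and their signalling chain held both rises and falls. Of 17 genes for interferon receptors, JAK-STAT signalling and its inhibitors, all tested at day 4, 8 rose and 2 fell in Mll1-KO (47.1% and 11.8%, beside 16.5% and 19.2% of all genes). In Mll2-KO 4 rose and 3 fell (23.5% and 17.6%, beside 25.4% and 20.3%), which is near the background. In double-KO 10 rose and 2 fell (58.8% and 11.8%, beside 27.6% and 23.3%). Their medians were 0.18, 0.016 and 0.27. Ifnar1, a chain of the type I receptor, rose in Mll1-KO (0.56 ± 0.041, limma adjusted p = 8.1e-11) and was not called in Mll2-KO (-0.094, limma adjusted p = 0.066). Ifngr2, a chain of the interferon gamma receptor, rose in Mll1-KO (0.56 ± 0.062, limma adjusted p = 1.1e-07), whereas Ifngr1 fell there (-0.26 ± 0.063, limma adjusted p = 0.0021). Ifnlr1, the type III receptor chain, fell in Mll2-KO (-1.34 ± 0.16, limma adjusted p = 1.9e-07) and double-KO (-0.97 ± 0.16, limma adjusted p = 1.5e-05). Socs3, an inhibitor of JAK signalling, rose in Mll1-KO (0.57 ± 0.07, limma adjusted p = 4.5e-07) and double-KO (1.06 ± 0.07, limma adjusted p = 3.4e-12).

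A further list of 61 interferon-stimulated genes outside the 42 had 46 members tested at day 4. In Mll1-KO 20 rose and 7 fell (43.5% and 15.2%, beside 16.5% and 19.2% of all genes; median 0.37), and in Mll2-KO 8 rose and 18 fell (17.4% and 39.1%, beside 25.4% and 20.3%; median -0.16). In double-KO 12 rose and 9 fell (26.1% and 19.6%, beside 27.6% and 23.3%; median 0.015), near the background. Trim30a rose most in Mll1-KO (1.63 ± 0.49, limma adjusted p = 0.011), followed by Mndal (1.28 ± 0.36, limma adjusted p = 0.0063), which fell in Mll2-KO (-1.43 ± 0.36, limma adjusted p = 0.0019). Both belong to families of close copies, so their counts are uncertain. Psmb8, a subunit of the immunoproteasome, fell in Mll2-KO (-1.86 ± 0.47, limma adjusted p = 0.0021), as did Nmi, the partner of Ifi35 (-1.83 ± 0.37, limma adjusted p = 0.00025), and Parp12 (-1.59 ± 0.15, limma adjusted p = 3.5e-09). Tmem140 (-0.96 ± 0.13, limma adjusted p = 1.7e-06) and Lgals9 (-0.90 ± 0.049, limma adjusted p = 2.7e-13) fell in Mll1-KO, and Lgals9 rose in Mll2-KO (0.89 ± 0.049, limma adjusted p = 2.7e-13).

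**Figure D4:**
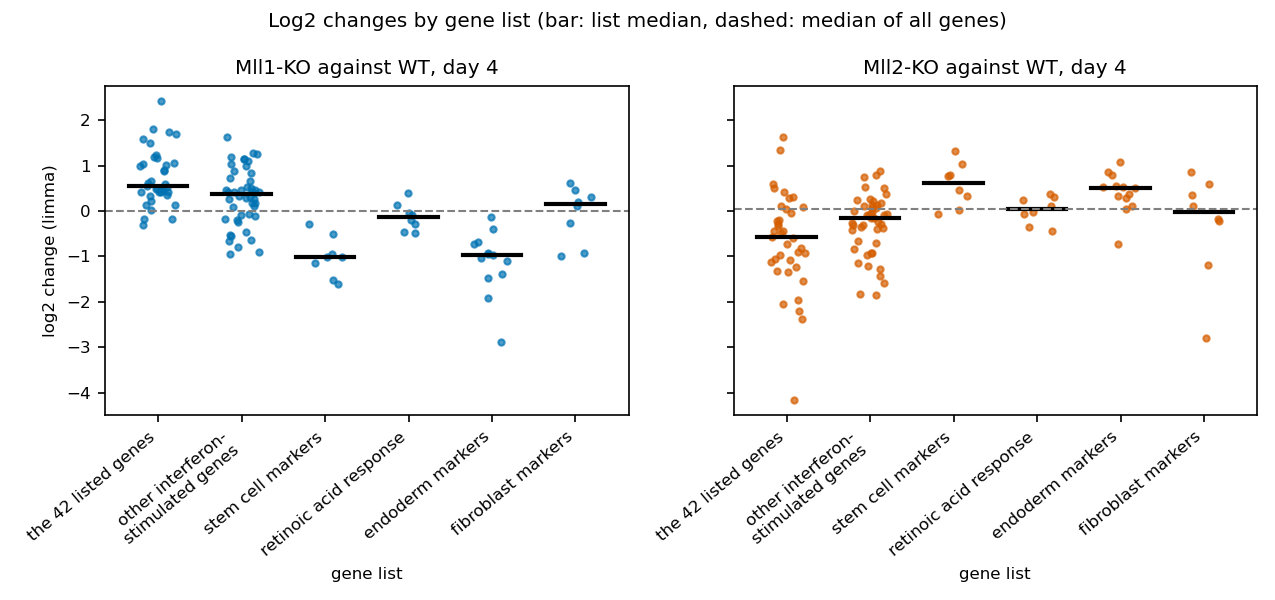
Log2 change against WT at day 4 (y axis, limma) for each tested gene of 6 lists (x axis), Mll1-KO on the left and Mll2-KO on the right, with a bar at the list's median and a dashed line at the median of all genes. The medians of the listed genes tested and of the other interferon-stimulated genes lie above the dashed line in Mll1-KO and below it in Mll2-KO, and those of the endoderm and stem cell markers the reverse.

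Markers of endoderm and of stem cells moved in the opposite sense to the listed genes in both single mutants. All 13 endoderm markers fell in Mll1-KO, and 9 rose and 1 fell in Mll2-KO. All 8 stem cell markers fell in Mll1-KO and 6 rose in Mll2-KO. In double-KO, where the listed genes split 13 to 9, 1 endoderm marker rose and 8 fell, and 2 stem cell markers rose and 4 fell. These and the marker counts below are to be read beside the shares of all genes. Of all genes, 16.5% rose and 19.2% fell in Mll1-KO, 25.4% and 20.3% in Mll2-KO, and 27.6% and 23.3% in double-KO. The 8 fibroblast markers split 2 to 2 in Mll1-KO, 3 to 2 in Mll2-KO and 5 to 3 in double-KO. Their sum ran from 8570 to 9040 normalized counts in WT, 9860 to 10500 in Mll1-KO, 10600 to 11600 in Mll2-KO and 17000 to 17700 in double-KO. The 8 macrophage and blood cell markers summed to 207 to 267 in WT, 125 to 178 in Mll1-KO, 276 to 307 in Mll2-KO and 220 to 251 in double-KO, and their part in the results was not tested. Csf1r stood at 127, 140.3 and 127 in WT, 54.9, 62.9 and 51.9 in Mll1-KO, 105, 79.5 and 99.3 in Mll2-KO and 73.9, 78.2 and 66.2 in double-KO, and Cd68 at 51.8, 57.1 and 95.4 in WT, 75.9, 69.5 and 51.9 in Mll1-KO, 173, 189 and 156 in Mll2-KO and 139.9, 150.2 and 129 in double-KO. Of the 4 of these markers tested, 0 rose and 1 fell in Mll1-KO, 1 rose and 2 fell in Mll2-KO, and 1 rose and 2 fell in double-KO. The lowest were Ptprc, at 0 in every day 4 library, and Tyrobp, at no more than 1.53. The 7 endothelial markers summed to 386 to 460 in WT, 248 to 321 in Mll1-KO, 448 to 528 in Mll2-KO and 371 to 430 in double-KO. Of the 8 retinoic acid response genes, 2 rose and 4 fell in Mll1-KO (25% and 50%), and 4 rose and 2 fell in Mll2-KO (50% and 25%). In double-KO 3 rose and 4 fell (37.5% and 50%).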

How the data were processed

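PolyA-selected RNA from 24 libraries was sequenced after strand-specific preparation, per the labels' protocols. Per the submitters' processing notes the authors worked with build mm10 and STAR 2.7.10a. RSEM 1.3.1 and DESeq2 1.34.0 are also named, beside SAMtools 1.13, Trim Galore 3.4 and FastQC. The role of each is not given in the sources used here. The authors deposited 1 table of 19953 genes whose signal values are normalized counts. Each value divided by 1 factor per library gave a whole number for 100% of values (tolerance 1e-06), so read counts and depth could be recovered: 17700000 to 22800000 reads per library at day 0 and 10700000 to 17100000 at day 4. Reads carry no molecular identifiers, so intervals (95%, exact, conditional on the summed reads) and floors of 3 counts per library cover counting error only. The day 0 WT columns have 1 letter more than the labels account for and were taken as day 0 WT, being the only WT columns of that day.

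Samples were grouped by the labels, and columns matched to them by name. The main test was limma 3.58.1 with trend in R 4.3.3 on log2(normalized count + 1), for genes that reached 10 in 3 or more libraries of the fit, with 1 fit for each day's 12 libraries (2-day comparisons: all 24) and Benjamini-Hochberg adjustment over all genes tested. A call is an adjusted p under 0.05. Alternatives were pseudocounts 0.5 and 5, no filter, a minimum of 50, quantile and column-total scaling, the replicate number as a block, fits with fewer or all groups, leaving out each library, and, on recovered reads, edgeR 4.0.16 (TMM, quasi-likelihood) and DESeq2 1.42.0. At day 4 edgeR called 2599 genes higher and 2717 lower in Mll1-KO against WT, and 3034 and 3372 in Mll2-KO. A count without genes that pass the filter only through the Mll1-KO libraries was chosen after seeing the data. The scripts were tested on simulated data.

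Members and gene lists were chosen with earlier results of these data known. Every member may be named; full statistics went first to those called in both single mutants at day 4, then to at most 6 rises and 6 falls per comparison with a group mean of at least 50 and no overlap. Genes outside the list were named if they are targeted, ligand, receptor or core pathway genes, or among the 3 largest called changes of their list in either single mutant. Socs3 and the 4 blood cell markers were named after their values were seen. Positions are from GENCODE M21 (GRCm38), and all 42 members matched by symbol. RefSeq promoter windows matched 32.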

Additional observations from a re-analysis of the deposited data

Results flagged for a closer look

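The values below are differences between effects, each past an adjusted p of 0.05 in limma with Benjamini-Hochberg adjustment over all genes. They were picked out because the test was of the difference itself.

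At day 4, 5 of the listed genes departed in double-KO from the sum of the single effects on the log2 scale: 5.41% of the 37 above it and 8.11% below, near the 7.59% and 6.05% of all genes. Ifit2 was above that sum by 0.91 (0.915) and Gbp2 by 0.51 (0.509), and these calls were lost in 15 and 4 of 22 alternatives. Gbp7 departed by -2.32, Dtx3l by -0.90 (-0.899) and Trim25 by -0.22 (-0.217), the last lost in 9 of 22.

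The effect of Mll1 loss differed between day 4 and day 0 for 11 genes, with 25.6% of the 39 tested more positive at day 4 and 2.56% more negative, beside 15% and 19% of all genes. It was more positive at day 4 for Oasl1 by 2.2, for Igtp by 1.05, for Irf1 by 0.693, for Eif2ak2 by 0.67 and for Ifi35 by 0.667. Smaller differences were found for Irf9 (0.515), Stat2 (0.51) and Bst2 (0.396). For Ifit3 (1.73) and Ifit3b (2.42) no read was counted at day 0 in WT or Mll1-KO, so the value is that of day 4 alone. Ddx58 had a more negative effect at day 4, by -0.769.

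The effect of Mll2 loss differed between the days for 11 genes, 12.8% of the 39 more positive and 15.4% more negative, below the 19.3% and 17% of all genes. It was more positive at day 4 for Samd9l by 2.92, for Cmpk2 by 2.08, for Xaf1 by 1.18 and for Irf1 by 0.653. Slfn2 (2.25) had few reads at day 0. The effect was more negative at day 4 for Parp14 by -1.73, for Parp9 by -1.09, for Ddx58 by -0.439 and for Eif2ak2 by -0.369. Ifih1 (-4.18) and Mx2 (-1.85) were at or near 0 at day 0 in most libraries, and the size of such fitted values depends on the pseudocount. The Mx2 call was lost in 11 of 20 alternatives.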

How the results depend on the processing

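No single listed gene that was called reversed direction: of 4470 values recomputed for called genes, 4137 stayed past the threshold and 333 did not. Opposite calls at day 4 numbered 15, and 7 with all 24 libraries, 12 with no filter, a minimum of 50 or quantile scaling, 14 with edgeR, DESeq2 or either pseudocount, and 9 to 15 with single libraries left out. Leaving out libraries gave 16 to 23 rises in Mll1-KO at day 4 (27 with all), 0 to 2 genes above additivity and 2 to 5 below it. At day 0 it gave 3 to 4 falls in Mll1-KO (6 with all), 1 to 2 rises in Mll2-KO and 2 to 4 in double-KO, and 1 to 2 more negative Mll1-KO effects at day 4 than at day 0.

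With a minimum of 50, which tests fewer genes, members called higher came to 17 in Mll1-KO against WT and 17 against Mll2-KO at day 4, 3 and 15 in double-KO against Mll1-KO and Mll2-KO, 2 in double-KO against WT and 7 in Mll1-KO against Mll2-KO at day 0, 14 in WT from day 0 to day 4, and 2 for the Mll2-KO effect by day. All 24 libraries together gave 14 rises in Mll1-KO at day 4, 7 in double-KO and 2 in Mll2-KO at day 0, and 0 genes above additivity. Genes above additivity were 1 with pseudocount 5, no filter, column totals or DESeq2. DESeq2 called 1 fall in double-KO against Mll2-KO, no filter gave 2 rises in Mll2-KO at day 0, and pseudocount 5 gave 18 more positive Mll1-KO effects at day 4. Quantile scaling gave 6 rises in Mll2-KO at day 4 and 3 falls in Mll1-KO at day 0. The counts at a minimum of 50 are out of fewer tested genes, so they do not compare directly with the main counts. The cause of these shifts was not tested.

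Over all genes, column totals gave 2045 rises in Mll2-KO (3634 before), 2905 genes lower in Mll1-KO than Mll2-KO (4652), 2685 higher in double-KO than Mll1-KO (4443) and 1793 more negative Mll1-KO effects at day 4 (2876). Departures from additivity came to 565 above and 435 below with all 24 libraries (1085 and 866) and to 704 and 565 without Mll2-KO replicate 2. Column totals moved the median of all genes to 0.11 in Mll1-KO against Mll2-KO at day 4, where that of the members was 1.28, and to 0.17 for WT between days, and quantile scaling the latter to -0.10.

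Deviations of same-numbered libraries were only weakly correlated (median r 0.027 at day 4 and 0.0035 at day 0, none of 18 pairs over 0.1 on either day). Yet 8 and 7 of 12 libraries correlated best with their own number out of 3, more than random matching would give. A weak structure shared by number is therefore not excluded. The numbers were not read as pairing in the main test because no pairing is stated. With the replicate block, opposite calls were 14, losing Dtx3l, and Mll1-KO rises 26. The filter left out the lowest members: 5 of 42 were not tested at day 4 and 18 at day 0, the day with the deeper libraries.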

Other observations

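Genes that sense or clear nucleic acid, which lie upstream of the interferon response, held both rises and falls in each mutant. Of 18 genes of nucleic acid sensing and signalling, 16 were tested at day 4, of which 5 rose and 1 fell in Mll1-KO, 4 rose and 1 fell in Mll2-KO, and 6 rose and 2 fell in double-KO (medians 0.039, 0.11 and 0.097). These are 31.2% and 6.25%, 25% and 6.25%, and 37.5% and 12.5% of the 16, beside 16.5% and 19.2%, 25.4% and 20.3%, and 27.6% and 23.3% of all genes. The DNA sensor gene Cgas was not called in Mll1-KO (-0.16, limma adjusted p = 0.62) or Mll2-KO (0.23, limma adjusted p = 0.41), nor was Sting1, which relays its signal (0.046, limma adjusted p = 0.9 and 0.19, limma adjusted p = 0.53). Aim2, a cytosolic DNA sensor, rose in Mll2-KO (1.52 ± 0.14, limma adjusted p = 3.1e-09), as did the kinase gene Ikbke (1.3, limma adjusted p = 1.2e-07). Tlr3, the endosomal sensor of double-stranded RNA, fell there (-1.20 ± 0.49, limma adjusted p = 0.047).

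Of 12 genes of nucleic acid clearance and editing, 3 rose and 2 fell in Mll1-KO, 3 rose and 4 fell in Mll2-KO, and 3 rose and 5 fell in double-KO. The rises were 25% of the 12 in each mutant and the falls 16.7%, 33.3% and 41.7%, to be read beside the shares of all genes given above. In normalized counts at day 4, Zc3hav1, the antiviral protein that binds CpG-rich RNA, stood at 915, 918 and 853 in WT, 578, 724 and 541 in Mll1-KO, 370.5, 384 and 319.7 in Mll2-KO and 153, 135 and 128 in double-KO. It fell in Mll1-KO (-0.55 ± 0.095, limma adjusted p = 5.4e-05), Mll2-KO (-1.32 ± 0.095, limma adjusted p = 3.1e-11) and double-KO (-2.69 ± 0.095, limma adjusted p = 3.0e-17). Samhd1, which degrades nucleotides, fell in Mll2-KO (-0.65 ± 0.062, limma adjusted p = 4.3e-09). Adar, the editor of double-stranded RNA, rose in Mll1-KO (0.30 ± 0.057, limma adjusted p = 0.00017) and fell in Mll2-KO (-0.16 ± 0.057, limma adjusted p = 0.021), the directions of most listed genes.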
